A study of Mus musculus with 8 samples.

Results

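A set of 10 transcripts that natural killer (NK) cells use to kill and to signal was followed through sorted spleen dendritic cells (DC). They were Gzma, Gzmb, Prf1, Nkg7, Ncr1, Klra8, Crtam, Il2rb, Xcl1 and Eomes, chosen by symbol through their Entrez gene IDs, and all 10 were found among the 27179 gene rows of the count table. The sorted cells were plasmacytoid DC (pDC) and conventional DC (cDC) from the spleens of C57BL/6 mice that carried a leukemia. Mice had received panobinostat, an inhibitor of histone deacetylases, or vehicle, a dextrose solution, for 2 days. The 4 groups were panobinostat pDC, vehicle pDC, panobinostat cDC and vehicle cDC, and every group, vehicle included, came from leukemia-bearing animals, without a leukemia-free group in the data analysed here. Each group had 2 libraries, called biological replicates in the labels, and each library pooled 3 to 6 mice. The sources used here give neither the age of the mice nor the leukemia's genotype.

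NK cells kill by releasing granules. Perforin opens the membrane of the target cell and granzymes, which are serine proteases, enter and start its death. Receptors such as NKp46, encoded by Ncr1, and the Ly49 family sense the target, interleukin 15 sustains NK cells through the receptor chain encoded by Il2rb, and the transcription factors Eomes and T-bet set their programme. DC are not known as killer cells, but 2 links between the cell types are well described: type 1 cDC carry Xcr1, the receptor of the chemokine Xcl1, and Cadm1, the ligand of Crtam. Some of the 10 genes are not exclusive to NK cells, since activated CD8 T cells also use granzymes, perforin, Nkg7, Crtam, Xcl1, Eomes and Il2rb, and human pDC make granzyme B.

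The start regions of 4 of the genes are shown as examples that carry short letter matches for factors known in NK cells. Prf1 and Xcl1 carried such matches too and are not shown. RefSeq's table (GRCm38.p6) held a promoter entry for 8 of the 10 genes, all but Crtam and Il2rb. Each sequence below is the 250 bases before the start, 5′ to 3′ on the gene's strand, in lower case. Capitals mark AGGTGT (T-box) or TGTGGT (RUNX), either as written or as their reverse complements ACACCT and ACCACA.
Gzma (chr13:113100982-113101231, minus strand): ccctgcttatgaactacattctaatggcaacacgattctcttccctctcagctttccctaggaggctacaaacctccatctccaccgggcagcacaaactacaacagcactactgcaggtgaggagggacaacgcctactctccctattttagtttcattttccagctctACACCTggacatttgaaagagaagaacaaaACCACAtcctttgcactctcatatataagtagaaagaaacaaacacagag
Gzmb (chr14:56262335-56262584, minus strand): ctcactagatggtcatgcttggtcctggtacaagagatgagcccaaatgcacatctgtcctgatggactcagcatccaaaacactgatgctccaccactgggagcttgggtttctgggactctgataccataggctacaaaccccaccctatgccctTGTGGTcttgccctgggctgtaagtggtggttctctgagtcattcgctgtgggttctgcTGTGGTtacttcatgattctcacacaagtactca
Ncr1 (chr7:4337465-4337714, plus strand): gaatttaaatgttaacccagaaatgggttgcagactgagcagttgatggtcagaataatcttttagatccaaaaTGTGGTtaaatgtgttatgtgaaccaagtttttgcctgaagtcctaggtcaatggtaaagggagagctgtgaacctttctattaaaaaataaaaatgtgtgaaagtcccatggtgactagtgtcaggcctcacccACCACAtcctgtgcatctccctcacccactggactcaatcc
Nkg7 (chr7:43436888-43437137, plus strand): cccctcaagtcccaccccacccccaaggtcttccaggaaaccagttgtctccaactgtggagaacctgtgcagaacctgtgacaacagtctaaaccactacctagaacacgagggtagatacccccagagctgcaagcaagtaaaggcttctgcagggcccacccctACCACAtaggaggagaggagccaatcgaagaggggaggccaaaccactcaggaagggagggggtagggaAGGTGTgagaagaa

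The T-box letters occurred in 3 of the 8 genes (Gzma, Nkg7 and Prf1), and in 11.8% of the 32851 promoters of the table. The RUNX letters occurred in 6 of the 8 (Gzma, Gzmb, Ncr1, Nkg7, Prf1 and Xcl1), and in 14.0% of all promoters. None of these matches overlapped another, and a match describes letters only. Eomes and Klra8 had neither in this window. The counts out of 8 are per gene, with a match in any entry counting, while the percentages are per promoter entry. Ncr1 and Klra8 each had a further, overlapping entry.

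The libraries held 13124861 to 20657429 counts, and the labels were checked against defining DC genes. Siglech, a pDC surface lectin, lay between 4061 and 6548 CPM (counts scaled to a common depth) in the 4 pDC libraries, against 1.57 to 3.26 CPM in the 4 cDC libraries. Zbtb46, a cDC transcription factor, reached 2.37 to 19.6 CPM in pDC and 137 to 199.9 CPM in cDC. Panobinostat pDC replicate 2 stood apart, with the fewest counts and 10745 genes detected, against 14927 to 19950 in the other 7 libraries. In any library a count of 0 allows up to 3 counts, which is 0.145 to 0.229 CPM, and such limits cover counting error only. In bulk RNA, fewer cells of a type and less RNA per cell cannot be told apart.

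Summed over the 10 genes, the level was 9.12 and 1.39 CPM in panobinostat pDC, against 2.67 and 5.51 CPM in vehicle pDC. The same sum was 16.2 and 343 CPM in panobinostat cDC, against 5.82 and 64.1 CPM in vehicle cDC. Group means were 5.26 ± 5.46 CPM (panobinostat pDC), 4.09 ± 2.01 CPM (vehicle pDC), 179 ± 231 CPM (panobinostat cDC) and 35.0 ± 41.2 CPM (vehicle cDC; SD, n = 2 each). A single library, panobinostat cDC replicate 2, thus held 6308 of the counts, and without it the panobinostat cDC value was 16.2 CPM, below the vehicle cDC mean. That mean includes vehicle cDC replicate 2, and vehicle cDC replicate 1 alone was at 5.82 CPM. In both treatments the cDC library numbered 2 was far above the one numbered 1, and the treatment groups overlapped.

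**Figure D1:**
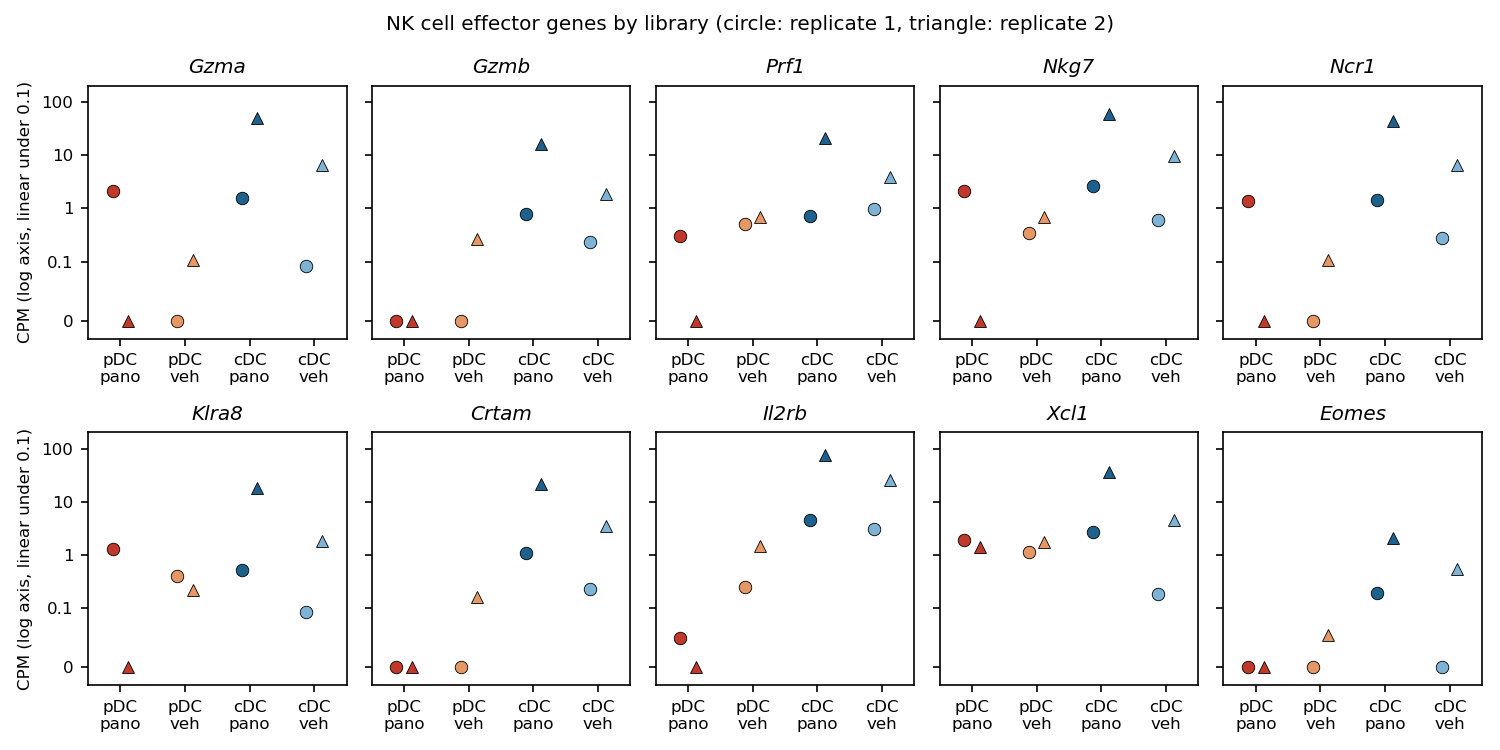
CPM of each of the 10 NK cell effector genes in the 8 libraries, on a log axis that is linear under 0.1 CPM, with circles for replicate 1 and triangles for replicate 2 (pano, panobinostat; veh, vehicle). In every panel panobinostat cDC replicate 2 is the highest library, and in 9 of the 10 panels panobinostat pDC replicate 2 is at 0.

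The granule effectors were followed individually. Gzma encodes granzyme A, a trypsin-like protease (chr13:113093824-113100981, minus strand). It stood at 2.08 and 0 CPM in panobinostat pDC and at 0 and 0.108 CPM in vehicle pDC. In cDC it stood at 1.54 and 50.5 CPM with panobinostat and at 0.0932 and 6.46 CPM with vehicle. The values of replicate 1 and replicate 2 were therefore further apart than those of panobinostat and vehicle. Gzmb encodes granzyme B, the caspase-activating protease (chr14:56258836-56262334, minus strand). It had 0 and 0 CPM in panobinostat pDC against 0 and 0.270 CPM in vehicle pDC, and 0.771 and 15.9 CPM in panobinostat cDC against 0.233 and 1.89 CPM in vehicle cDC. The gene was thus at or near 0 in all pDC libraries, with 5 counts in total there.

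Prf1 encodes perforin, the pore-forming protein (chr10:61297751-61304684, plus strand). Its values were 0.297 and 0 CPM in panobinostat pDC and 0.504 and 0.703 CPM in vehicle pDC. In cDC they were 0.723 and 21.5 CPM with panobinostat, against 0.978 and 3.97 CPM with vehicle. Prf1 was the one gene of the 10 whose replicate 1 value in cDC was lower with panobinostat than with vehicle. Nkg7, a granule membrane protein needed for efficient degranulation (chr7:43437138-43438246, plus strand), had 2.13 and 0 CPM in panobinostat pDC against 0.353 and 0.703 CPM in vehicle pDC. It had 2.60 and 58.6 CPM in panobinostat cDC, against 0.606 and 9.51 CPM in vehicle cDC. Nkg7 and Prf1 had counts in both vehicle pDC libraries, where Gzma and Gzmb were at 0 in replicate 1.

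Among the receptors, Ncr1 (chr7:4337715-4345184, plus strand) encodes NKp46, which marks NK cells and some other innate lymphoid cells. It reached 1.39 and 0 CPM in panobinostat pDC, against 0 and 0.108 CPM in vehicle pDC. The cDC values were 1.45 and 43.1 CPM with panobinostat and 0.280 and 6.42 CPM with vehicle. Its profile over the 8 libraries was close to that of Gzma, with counts in panobinostat pDC replicate 1 and next to none in the other pDC libraries. Klra8 encodes Ly49H, the receptor for a cytomegalovirus protein (chr6:130115226-130129898, minus strand). It showed 1.29 and 0 CPM in panobinostat pDC against 0.404 and 0.216 CPM in vehicle pDC, and 0.530 and 18.1 CPM in panobinostat cDC against 0.0932 and 1.85 CPM in vehicle cDC. Klra8 belongs to a family of near-identical neighbours, and the sources used here do not say how shared reads were counted, so its level is uncertain. Of that family, Klra4 had 1.25 and 19.0 CPM in panobinostat cDC against 0.326 and 1.43 CPM in vehicle cDC, and Klra7 had 0.289 and 21.5 CPM against 0 and 1.89 CPM, while both were at 0 in all 4 pDC libraries (named after their values were seen).

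Crtam encodes an adhesion receptor of activated NK and CD8 T cells (chr9:40972798-41004628, minus strand). It was at 0 and 0 CPM in panobinostat pDC, and at 0 and 0.162 CPM in vehicle pDC. In cDC it was at 1.11 and 22.0 CPM with panobinostat, against 0.233 and 3.51 CPM with vehicle. Crtam was therefore present in each cDC library and nearly absent from pDC. Il2rb encodes the beta chain that the receptors for interleukins 2 and 15 share (chr15:78479256-78511621, minus strand). It measured 0.0496 and 0 CPM in panobinostat pDC against 0.252 and 1.46 CPM in vehicle pDC, and 4.58 and 75.4 CPM in panobinostat cDC against 3.12 and 25.4 CPM in vehicle cDC. It took the most counts of the 10 genes in each of the 4 cDC libraries.

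The chemokine gene Xcl1 encodes lymphotactin (chr1:164931644-164935522, minus strand). Its values were 1.88 and 1.39 CPM in panobinostat pDC, against 1.16 and 1.73 CPM in vehicle pDC. With panobinostat cDC had 2.75 and 35.5 CPM, and with vehicle 0.186 and 4.52 CPM. Xcl1 was the one gene with counts in all 4 pDC libraries, where it varied little, and vehicle cDC replicate 1 lay below each of them. A gene on the opposite strand, Gm20743, overlaps it, and the sources used here do not say whether counting used the strand. Eomes, the T-box factor of NK and memory CD8 T cells (chr9:118478186-118486132, plus strand), had 0 and 0 CPM in panobinostat pDC against 0 and 0.0541 CPM in vehicle pDC. It had 0.193 and 2.12 CPM in panobinostat cDC, against 0 and 0.554 CPM in vehicle cDC. Per kilobase, Eomes was the lowest of the 10 or tied at 0 in all 8 libraries, and Gm33460 overlaps it on the opposite strand.

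Levels of different genes were compared per kilobase of exon. In panobinostat cDC the order of mean CPM per kilobase was Xcl1 (36.5), Nkg7 (34.7), Gzma (25.9), Ncr1 (14.5), Il2rb (9.33), Klra8 (7.90), Gzmb (5.81), Prf1 (4.29), Crtam (2.25) and Eomes (0.313). In vehicle cDC, Nkg7 (5.74) and Xcl1 (4.50) again led and Crtam (0.365) and Eomes (0.0750) again closed the order, while Il2rb (3.33) took the place after Xcl1. The ranges of the 2 libraries overlapped between all neighbours in both orders, but these ranges hold the gap between replicates that the genes share. Within single libraries some orders held. Crtam was above Eomes in both panobinostat cDC libraries (0.216 against 0.0522, 4.29 against 0.574) and both vehicle cDC libraries (0.0454 against 0, 0.684 against 0.150). Others did not, since in vehicle cDC replicate 1 Il2rb (0.728) was above Nkg7 (0.688) and Xcl1 (0.356).

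The make-up of the NK signal was described by each gene's share of the 10 genes' counts. In panobinostat cDC replicate 2, Il2rb took 22.0% of 6308 counts (95% Wilson interval 20.999 to 23.04%), against 39.6% of 1388 counts (37.1 to 42.2%) in vehicle cDC replicate 2. In the libraries numbered 1 its share was 28.2% of 337 counts (23.7 to 33.2%) with panobinostat and 53.6% of 125 counts (44.9 to 62.1%) with vehicle. Il2rb thus made up a smaller part of the sum with panobinostat in both numbers. Gzma ran the other way, with 14.7% (13.9 to 15.6%) in panobinostat replicate 2 against 10.1% (8.61 to 11.8%) in vehicle replicate 2. It had 9.50% (6.81 to 13.1%) in panobinostat replicate 1 against 1.60% (0.440 to 5.65%) in vehicle replicate 1. Nkg7 was steadier, with 16.02% and 17.09% in panobinostat cDC against 10.4% and 14.8% in vehicle cDC. Reads are not independent molecules here, and the intervals cover counting error only.

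**Figure D2:**
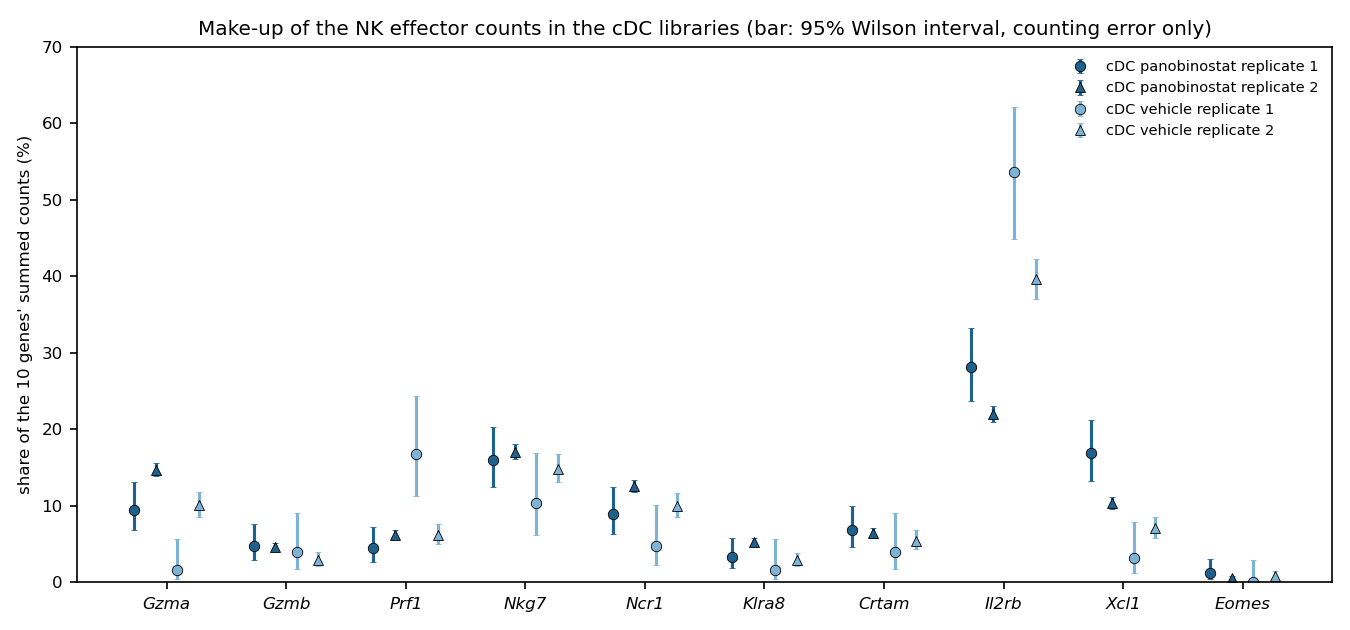
Share of each gene in the summed counts of the 10 NK cell effector genes in the 4 cDC libraries, in percent, with 95% Wilson intervals that cover counting error only. The Il2rb share is lower in both panobinostat libraries (28.2% and 22.0%) than in both vehicle libraries (53.6% and 39.6%).

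The first comparison asked whether panobinostat changed these transcripts in cDC. All 10 genes had a positive fitted log2 fold change, from 1.49 ± 1.55 (Il2rb) to 3.25 ± 2.23 (Klra8; SE, n = 2 libraries per group), but none passed the test. Their median log2 fold change was 2.68, beside 0.00 over all 14238 genes tested. With edgeR's quasi-likelihood test fitted over all 8 libraries, 0 of the 10 were called at an adjusted p of 0.05, 0 had an unadjusted p under 0.05, and the share of all genes called was 0.0%. DESeq2 and limma-voom also called 0 of the 10. Each adjusted p was 1, and for none of the 10 did the panobinostat libraries lie wholly above or below the vehicle libraries, while 22.2% of all genes lay wholly above and 18.8% wholly below. Without panobinostat cDC replicate 2, the log2 fold change turned negative for 9 of the 10, from -1.77 (Prf1) to -0.46 (Gzmb), and stayed positive for Xcl1 (0.22). That fit sets panobinostat replicate 1 alone against both vehicle replicates, so its sign also carries the gap between replicate numbers.

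The 2 libraries of a number were then set side by side, since deviations of same-numbered libraries correlated over all tested genes (0.49 between the cDC groups). Among libraries numbered 1, panobinostat over vehicle gave a median ratio of 4.76 over the 9 genes with a ratio (0.739 for Prf1 to 16.6 for Gzma), and Eomes had 4 counts against 0. Among libraries numbered 2 the median ratio was 6.50 (2.97 for Il2rb to 9.80 for Klra8). Panobinostat was above vehicle in both numbers for 9 of the 10 genes, all but Prf1, as was 34.4% of all genes. It was over 2-fold above vehicle in both numbers for 8 of the 10, all but Prf1 and Il2rb, as was 1.36% of all genes. For Eomes this rests on 4 counts against 0 in number 1, where a 0 allows up to 3 counts. Other passes also rest on few counts in vehicle replicate 1, such as 2 for Gzma and 2 for Klra8. The ratio between numbers was larger than that of panobinostat over vehicle. For replicate 2 over replicate 1 its median was 21.6 (10.99 to 34.1) within panobinostat and 15.7 (4.06 to 69.4) within vehicle. All 10 genes were at least 4-fold higher in replicate 2 in both treatments, as was 0.801% of all genes. These rules were set after the values were seen.

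**Figure D3:**
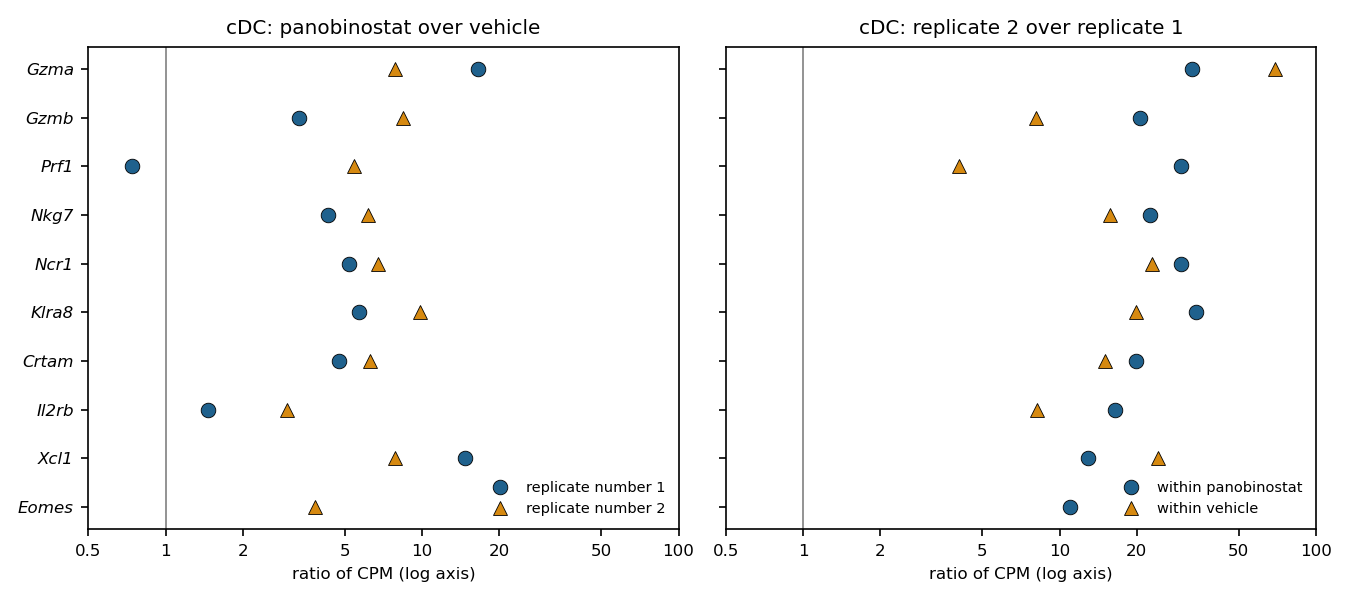
Ratios of CPM between cDC libraries for each gene on a log axis, with panobinostat over vehicle within each replicate number on the left and replicate 2 over replicate 1 within each treatment on the right. Eomes has no point where its vehicle replicate 1 count is 0. On the left the points run from 0.739 to 16.6, and on the right from 4.06 to 69.4.

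With the replicate number as a block in a fit of the 4 cDC libraries only, an alternative added after seeing the data, panobinostat effects passed for 6 of the 10 genes. Xcl1 rose by 3.13 ± 0.26 on the log2 scale (adjusted p = 0.034), Gzma by 3.07 ± 0.24 (0.031), Ncr1 by 2.65 ± 0.20 (0.030) and Nkg7 by 2.46 ± 0.19 (0.031). Klra8 (3.15 ± 0.33, adjusted p = 0.045) and Crtam (2.53 ± 0.26, adjusted p = 0.044) rose as well, all adjusted p values being edgeR's over the genes of that fit. In the same fit 0.514% of 14204 genes were called higher. Gzmb (2.71 ± 0.41, adjusted p = 0.067), Eomes (2.16 ± 0.71, 0.23), Il2rb (1.16 ± 0.26, 0.14) and Prf1 (1.45 ± 0.70, 0.37) did not pass. This fit has 1 residual degree of freedom, and with the block in the fit of all 8 libraries, or with the 4 cDC libraries and no block, 0 of the 10 passed (0.0% of all genes in either). The call in cDC thus rests on the pairing by number and on leaving the pDC libraries out together.

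**Figure D4:**
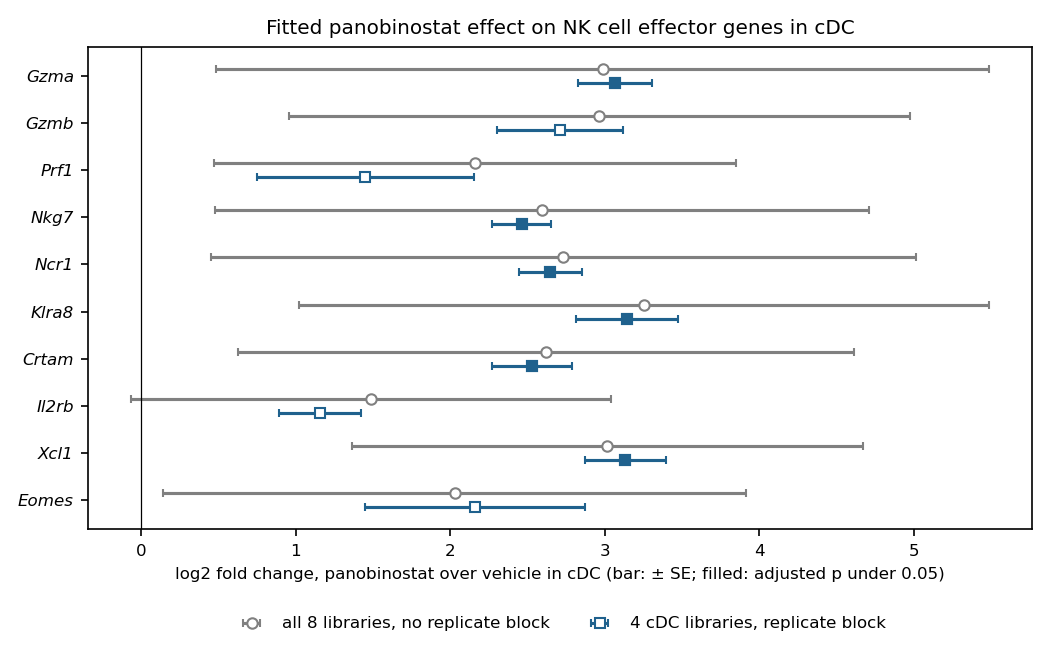
Fitted log2 fold change of panobinostat over vehicle in cDC for the 10 genes, with bars of ± 1 SE, in the fit of all 8 libraries (grey circles) and in the fit of the 4 cDC libraries with the replicate block (blue squares), filled where the adjusted p is under 0.05. Over both fits the estimates run from 1.16 to 3.25, while the SE is 1.55 to 2.50 in the grey fit and 0.19 to 0.71 in the blue one.

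In pDC the question was the same. With edgeR, 0 of the 10 genes were called for panobinostat against vehicle, where 0.0913% of all genes were called, and 0 had an unadjusted p under 0.05, while DESeq2 and limma-voom called 0. Panobinostat libraries lay wholly below vehicle libraries for Prf1 and Il2rb, as for 26.5% of all genes, and wholly above for 0 of the 10, where 15.7% of all genes did. Il2rb had 1 count in panobinostat pDC against 32 in vehicle pDC, with 27 of the 32 in vehicle pDC replicate 2 (log2 fold change -4.53 ± 2.20, edgeR adjusted p = 0.39). Without that library its log2 fold change was -2.82 (adjusted p = 0.72). Gzma and Ncr1 stood the other way by pooled counts, 26.0-fold (6.77 to 222) and 17.3-fold (4.37 to 150) higher in panobinostat pDC, against 2 counts each in vehicle pDC, with adjusted p = 0.53 and 0.55. All of their panobinostat counts came from replicate 1, and without that library both fitted log2 fold changes were -3.15. The fitted median of the 10 log2 fold changes was -0.82, but 0.62 over the 8 genes left when Gzmb is put at its bound (at least 1.35-fold lower) and Crtam and Eomes, at or under 3 counts in both groups, are left out. The median of all genes was -0.14. With the replicate block in a fit of the 4 pDC libraries, edgeR called 0 of the 10, and 0.141% of all genes.

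The effects of panobinostat in pDC and in cDC were also tested against each other. By edgeR 0 of the 10 differences were called, 0 had an unadjusted p under 0.05, and 0.00702% of all genes were called; DESeq2 and limma-voom called 0 of the 10. The difference, pDC minus cDC, was -6.01 ± 2.71 for Il2rb (adjusted p = 0.68) and 1.19 ± 3.41 for Gzma (adjusted p = 0.97).

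Between cell types under panobinostat, both pDC libraries lay below both cDC libraries for 8 of the 10 genes, as for 38.0% of all genes, while for Gzma and Klra8 panobinostat pDC replicate 1 lay above panobinostat cDC replicate 1. Il2rb fell by 10.06 ± 2.43 on the log2 scale in pDC relative to cDC (edgeR adjusted p = 0.038), with 1 count against 1483, a pooled ratio of 1172 (counting interval 210 to 46321). It was the 1 gene of the 10 called, where 10.2% of all genes were called lower. With Il2rb, 4 of the 10 had an unadjusted p under 0.05, the others being Prf1, Gzmb and Crtam, as had 34.8% of all genes. The pooled counts put Gzmb at least 81.4-fold lower, Crtam at least 113-fold lower and Eomes at least 11.3-fold lower in pDC, taking 3 counts in the pDC group as the floor. These values rest on panobinostat cDC replicate 2, without which the bounds were at least 7.96-fold, 11.4-fold and 1.99-fold and the Il2rb ratio was 142 (24.8 to 5655). The median log2 difference over the 10 genes was -4.86 with these genes at their bounds (-5.47 as fitted), beside -0.18 over all genes, and -1.13 (-1.68 as fitted) without that library, beside -0.17. The replicate block over all 8 libraries called 3 of the 10, Gzmb, Crtam and Il2rb, where 8.55% of all genes were called lower. In the fit of the 4 libraries compared with the block, added after seeing the data, Il2rb was called (-8.88 ± 2.12, adjusted p = 0.027), where 3.64% of all genes were called lower. DESeq2 called 5 lower (18.1% of all genes), and limma-voom (16.1%) and edgeR with no filter (6.43%) called 3 each. Leaving out any 1 of the 8 libraries, or fitting only the 4 libraries compared without the block, left 0 called, and the adjusted p of Il2rb over the 16 alternatives ran from 4.3e-06 to 0.15.

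Under vehicle 0 of the 10 genes were called by edgeR, against 9.73% of all genes. At an unadjusted p under 0.05 there were 0, against 24.5% of all genes. DESeq2 called 1 of the 10 lower, Il2rb, where it called 12.2% of all genes lower, and limma-voom called 0. Both pDC libraries lay below both cDC libraries for Ncr1, Prf1, Crtam and Il2rb, as for 35.5% of all genes. The median log2 difference, pDC minus cDC, was -3.18, beside 0.02 over all genes, and Xcl1 came nearest to no difference (-0.70 ± 1.56, adjusted p = 0.89). With the replicate block in a fit of the 4 libraries compared, added after seeing the data, 6 of the 10 were lower in pDC (Gzma, Gzmb, Ncr1, Nkg7, Crtam and Il2rb), where 24.1% of all genes were called lower. Il2rb had 32 counts in vehicle pDC against 617 in vehicle cDC, and its log2 difference in that fit was -3.97 ± 0.36 (adjusted p = 0.00043). The comparisons under panobinostat and under vehicle use different libraries, while each shares its libraries with the treatment comparisons.

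Other NK receptor and signalling genes were read from a list of 30, of which 29 were in the table and all of those were tested. For panobinostat in cDC edgeR called 0 of the 29, with 0 at an unadjusted p under 0.05; 25 of them had a positive log2 fold change and the median was 0.83, beside 0.00 over all genes. The list held 2 kinds of gene by level. The 18 that were under 10 CPM in at least 1 cDC library, such as Klrb1c, summed to 33.5 and 170 CPM in panobinostat cDC, against 20.3 and 49.0 CPM in vehicle cDC. Klrb1c, the NK1.1 antigen of C57BL/6 mice, had 0.820 and 14.5 CPM in panobinostat cDC and 0.280 and 5.03 CPM in vehicle cDC, and 1.04 and 0 CPM in panobinostat pDC and 0 and 0.162 CPM in vehicle pDC. Klrb1c was thus high and low in the same cDC libraries as the 10 genes. The other 11, at 10 CPM or more in each cDC library, included Tbx21, which encodes T-bet and had 38.6 and 40.2 CPM in panobinostat cDC against 41.9 and 35.6 CPM in vehicle cDC. The Tbx21 level therefore did not separate the libraries that differed so widely in Eomes. In the fit of the 4 cDC libraries with the block, 1 of the 29 was called higher, Klra7 (3.54 ± 0.38, adjusted p = 0.045), and 0 lower. In that fit 0.514% of all genes were called higher.

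In pDC edgeR again called 0 of the 29 in the fit of all 8 libraries, with 5 at an unadjusted p under 0.05, as had 14.9% of all genes. Its 4 smallest p values belonged to Klrk1, Klrd1, Id2 and Fcgr3. Klrk1, which encodes the activating receptor NKG2D, had 178 and 487 CPM in panobinostat pDC against 23.0 and 42.8 CPM in vehicle pDC (log2 fold change 3.34 ± 0.55, adjusted p = 0.13). Klrd1, the CD94 chain, had 407 and 832 CPM against 156 and 230 CPM (1.69 ± 0.37, adjusted p = 0.16). In the fit of the 4 pDC libraries with the replicate block, 26 of the 29 were tested. Klrk1 was called higher there (3.16 ± 0.29, edgeR adjusted p = 0.016) and 0 were called lower, where 0.141% of all genes were called. Klrk1 and Klrd1 were both highest in panobinostat pDC replicate 2, the library in which 9 of the 10 NK effector genes were at 0.

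Granule partners, meaning other granzymes and the genes that load, release or restrain granule proteins, numbered 18, of which 11 were tested. In the fit of all 8 libraries edgeR called 0 for panobinostat in cDC (median log2 fold change 0.04, 0 at an unadjusted p under 0.05). In pDC it called 0 (0.17, with 1 at an unadjusted p under 0.05, Unc13d, as had 14.9% of all genes). Of the 18 genes, 9 were at 10 CPM or more in each cDC library, among them Srgn, the granule proteoglycan, and Ctsc, the protease that activates granzymes. Ctsc had 389 and 391 CPM in panobinostat cDC against 321 and 298 CPM in vehicle cDC, and its libraries numbered 1 and 2 were nearly equal. Unc13d, needed for granule fusion, had 15.5 and 31.6 CPM in panobinostat pDC against 133 and 104 CPM in vehicle pDC (log2 fold change -2.33 ± 0.38, adjusted p = 0.13). By contrast Fasl, the death ligand of killer cells, had 1.01 and 5.54 CPM in panobinostat cDC against 0.559 and 3.19 CPM in vehicle cDC, with the higher value in replicate 2 both times.

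The DC partners of these genes were at a different scale. Xcr1 had 387 and 601 CPM in panobinostat cDC and 257 and 407 CPM in vehicle cDC, and 3.72 and 0 CPM in panobinostat pDC and 1.11 and 4.595 CPM in vehicle pDC. Cadm1 had 245 and 348 CPM in panobinostat cDC and 252 and 386 CPM in vehicle cDC, against 48.2 to 81.8 CPM in the 4 pDC libraries. Both partners were lower in pDC than in cDC by edgeR, under panobinostat (log2 -7.93 ± 1.49 for Xcr1, adjusted p = 0.019; -2.19 ± 0.35 for Cadm1, 0.013) and under vehicle (-6.87 ± 1.41, 0.033; -2.57 ± 0.36, 0.010). Il15, the survival cytokine of NK cells, had 14.1 and 27.4 CPM in panobinostat cDC against 9.74 and 24.4 CPM in vehicle cDC. Of the 10 ligand and receptor genes, 0 were called by edgeR for panobinostat in cDC or in pDC, in the fit of all 8 libraries or with the block in either pair of groups. At an unadjusted p under 0.05 there were 0 in cDC and 2 in pDC, Jak3 and Stat5a, where 14.9% of all genes in pDC had one. Xcr1, Cadm1 and Il15 were all higher in the cDC libraries numbered 2, by far less than the NK effector genes.

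Markers of other cell types were set beside the NK genes in the same libraries. For T cells, Cd3e had 0.241 and 2.34 CPM in panobinostat cDC against 0.559 and 2.31 CPM in vehicle cDC, and 0 and 0 CPM in panobinostat pDC against 0.151 and 1.30 CPM in vehicle pDC. The 12 T cell markers summed to 161 and 177 CPM in panobinostat cDC against 141 and 140 CPM in vehicle cDC, with Cd4, which some cDC express, making up 51.3 to 78.3% of it. The low members did not all follow that sum. Lck, a signalling kinase of T and NK cells, had 2.46 and 38.9 CPM in panobinostat cDC against 1.35 and 13.3 CPM in vehicle cDC, and Cd3d had 0.771 and 2.93 CPM against 0.280 and 2.03 CPM. Both were thus higher with panobinostat in each number, where Cd3e was not. Of the 12, 5 were at least 4-fold higher in replicate 2 in both treatments (Cd3e, Cd3g, Lck, Themis and Trat1), as all 10 NK effector genes were. None of the 12 was over 2-fold above vehicle in both numbers, beside 1.36% of all genes, and 0 of the 11 tested were called with the cDC block. Both rules, used again below, were set after the NK effector values were seen and do not set the lists apart. Replicate 1 held few counts of the low markers, with 5 (panobinostat) and 12 (vehicle) for Cd3e and 1 and 1 for Themis. The 8 B cell markers summed to 111 and 278 CPM in panobinostat cDC against 148 and 488 CPM in vehicle cDC. Their sum too was thus higher in replicate 2, and it was lower with panobinostat in each number. Ms4a1, which made up 17.0 to 56.2% of that sum, was instead higher with panobinostat in each number. It had 62.5 and 146 CPM in panobinostat cDC against 25.2 and 136 CPM in vehicle cDC. Plasma cell markers summed to 288 and 337 CPM in panobinostat cDC against 282 and 491 CPM in vehicle cDC, but Xbp1, a stress response factor not limited to plasma cells, made up 45.2 to 93.5% of the sum. Jchain, the joining chain of secreted antibody, had 13.8 and 32.9 CPM in panobinostat cDC against 36.1 and 187 CPM in vehicle cDC. Mzb1, a chaperone of antibody-secreting cells, had 3.28 and 16.6 CPM against 19.6 and 77.5 CPM and was called lower in the cDC fit with the block. Both were lower with panobinostat in each number and higher in replicate 2. The 7 neutrophil markers summed to 0.386 and 2.66 CPM in panobinostat cDC against 1.40 and 6.46 CPM in vehicle cDC. Of those 7 genes, 1 to 4 were at 0 in each cDC library. The part of these cells in the NK signal was not tested.

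Innate lymphoid markers summed to 238 and 213 CPM in panobinostat cDC against 398 and 269 CPM in vehicle cDC, and monocyte and macrophage markers to 711 and 537 CPM against 605 and 493 CPM. Progenitor genes summed to 396 and 401 CPM in panobinostat cDC against 350 and 260 CPM in vehicle cDC. Tmem176a made up 85.2 to 88.3% of the innate lymphoid sum and Kit 94.9 to 96.9% of the progenitor sum. Low progenitor genes ran otherwise, since Mpo, the granule peroxidase, had 0 and 120 counts in panobinostat cDC against 2 and 9 counts in vehicle cDC, and Elane, neutrophil elastase, had 0 and 19 against 1 and 3. At least 4-fold more in replicate 2 in both treatments was found for 3 of 7 progenitor genes and 3 of 7 neutrophil markers. It was found for 0 of the innate lymphoid, B cell, plasma cell and monocyte lists, beside 10 of the 29 other NK genes and 0.801% of all genes tested. That share covers tested genes only, while 5 of the 7 progenitor genes and 2 of the 7 neutrophil markers were tested. Some passes rest on almost no counts. In vehicle cDC Prtn3 and Ctsg each had 0 and 1 counts, and Retnlg had 1 and 5. Over 2-fold above vehicle in both numbers were 9 of the 29 other NK genes, 2 of 9 monocyte and macrophage markers (Ly6c2 and Ccr2) and 1 of 7 progenitor genes (Prtn3). In pDC, B cell markers summed to 164 and 420 CPM with panobinostat against 122 and 194 CPM with vehicle, where the NK sum was 9.12 and 1.39 CPM against 2.67 and 5.51 CPM. Their part in the result was not tested.

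**Figure D5:**
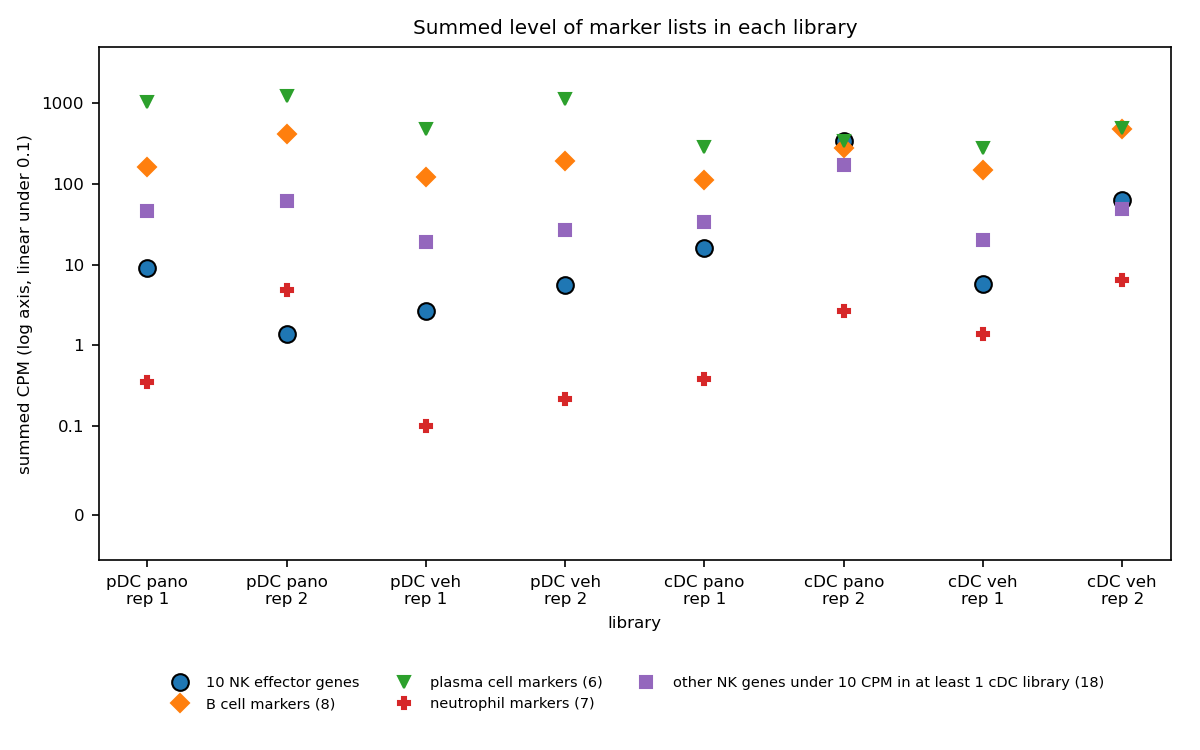
Summed CPM of the 10 NK cell effector genes, of 18 other NK genes and of B cell, plasma cell and neutrophil markers in each library, on a log axis that is linear under 0.1 CPM. The NK effector sum spans 1.39 to 343 CPM, and in cDC each plotted sum is higher in replicate 2 than in replicate 1 of the same treatment.

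The profiles of the 10 genes over the 8 libraries were compared by the root mean square difference of centred log2 CPM, as a description over libraries that share depth and pool. The closest pairs were Gzmb with Crtam (0.387) and Gzma with Ncr1 (0.399), and the most distant was Xcl1 with Il2rb (2.52). Against the profile of the summed counts, which the 10 genes themselves make up, Nkg7 was nearest (0.480) and Il2rb farthest (1.52). Among 10635 other tested genes whose log2 CPM averaged 1 or more, the nearest to the sum were Ifi205 (1.23), Ifi211 (1.24) and Snx20 (1.36). Most low NK genes fall under that level and could not be named by it. Over the 120 tested genes of the marker lists at any level, a comparison added after seeing the data, the nearest were Klrb1c (0.516), Klra9 (0.688) and Klrc1 (0.737).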

How the data were processed

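RNA from sorted pDC and cDC was sequenced in 8 libraries. The submitters' processing notes name bcl2fastq (2.17.1.14) for demultiplexing, FastQC (0.11.6) for quality, cutadapt (2.1) for trimming, HISAT2 (2.1.0) and mm10 for alignment, and featureCounts (Subread 2.0.0) for counting, without saying more of their use. The values deposited by the authors are whole-number counts of reads per Entrez gene ID and library. The sources used here give no strand setting, annotation or rule for multiply aligned reads. D5W columns (dextrose) were read as vehicle and LBH columns (LBH589) as panobinostat. The labels' extraction text speaks of leukemia cells, and the libraries were taken as DC from their titles.

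Of the 27179 IDs, 25275 (92.99%) matched a symbol, and Zfp683 from the NK list was not matched. The members and gene lists were chosen with earlier results of these data known. Tests used edgeR (4.0.16) in R (4.3.3) with limma (3.58.1) and DESeq2 (1.42.0) for alternatives. The filterByExpr function (minimum count 10, minimum total 15) left 14238 genes, with TMM scaling. The fit held the 8 libraries with 1 coefficient per group, and 5 contrasts were tested by quasi-likelihood F tests, with p values adjusted over all genes by Benjamini-Hochberg (threshold 0.05). CPM used TMM-scaled library sizes, and log2 CPM a prior count of 2. The pipeline was tested on simulated data. Exon lengths and positions (mm10, GRCm38) are from GENCODE.

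Deviations from group means correlated between same-numbered libraries, with 6 correlations between groups of 0.15 to 0.49, all above 0.1. The replicate numbers of the labels were therefore taken to pair libraries, although no label says what the libraries of a number share. The pairing was thus inferred from these same data, and 2 libraries per group give weak grounds for it. The sum of the 10 genes was higher in replicate 1 in panobinostat pDC (9.12 against 1.39 CPM) and higher in replicate 2 in the other groups. Alternatives were RLE scaling, library size only, no filter, DESeq2, limma-voom, a replicate block, only the libraries compared, and leaving out each library. Named genes are the 10, up to 4 tested genes per list with the smallest p for panobinostat in pDC, 8 landmark genes (Xcr1, Cadm1, Il15, Tbx21, Klrb1c, Cd3e, Siglech and Zbtb46), and the nearest profiles. Other genes were named after their values were seen. One result on a single marker gene is not reported here.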

Additional observations from a re-analysis of the deposited data

Results flagged for a closer look

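Il2rb was the one gene of the 10 whose same-numbered libraries moved in opposite directions in the cell types. In pDC it was lower with panobinostat in both numbers (0.0496 and 0 CPM with panobinostat, against 0.252 and 1.46 CPM with vehicle), and in cDC it was higher in both (4.58 and 75.4 CPM, against 3.12 and 25.4 CPM). The difference of the panobinostat effects, pDC minus cDC, was -6.01 ± 2.71 on the log2 scale. It did not pass edgeR's test (adjusted p = 0.68, and 0.50 with the replicate block).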

How the results depend on the processing

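Low counts limit the values in the 4 pDC libraries (0 to 43 counts behind a gene) and in vehicle cDC replicate 1 (0 to 67). For panobinostat in cDC, the replicate block called 0 of the 10 over all 8 libraries and 6 in the 4 cDC libraries (chosen after seeing the data), and leaving out a library 0. For pDC against cDC under vehicle, DESeq2 called 1, and the block called 0 over all 8 libraries and 6 in the libraries compared. Under panobinostat, no filter, limma-voom and the block each called 3, DESeq2 5, only the libraries compared 0 (1 with the block), and leaving out any library 0, against 1. The block changed no other count of calls. The causes were not tested.

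These log2 values changed sign. Leaving out a library leaves its group with a single replicate number, so the gap between numbers enters those values. For panobinostat in pDC, limma-voom gave -0.85 for Nkg7 and -0.49 for Klra8, and the block in the pDC libraries -0.70 and -0.45. Leaving out a library gave -3.15 to 7.31 for Gzma, -3.15 to 6.75 for Ncr1, -6.32 to 1.97 for Nkg7, -0.075 to 0.47 for Xcl1 and -5.58 to 1.99 for Klra8. For panobinostat in cDC, leaving out a library gave -1.08 to 8.03 for Gzma, -0.46 to 5.12 for Gzmb, -1.21 to 6.28 for Ncr1, -0.96 to 5.64 for Nkg7, -1.77 to 3.49 for Prf1, -0.75 to 5.59 for Crtam, -0.51 to 7.43 for Eomes, -1.64 to 3.68 for Il2rb and -0.86 to 6.54 for Klra8. For the difference of effects, limma-voom gave -0.91 for Gzma and -0.36 for Ncr1, and leaving out a library -6.13 to 5.25 for Gzma, -5.88 to 4.80 for Ncr1, -8.91 to 1.99 for Nkg7 and -8.83 to 1.95 for Klra8. For pDC against cDC under vehicle, Xcl1 was 0.57 with limma-voom, 0.25 with the block and 0.050 with the block in the libraries compared. Leaving out a library gave -1.64 to 2.91 for Xcl1, -5.45 to 2.30 for Eomes and -2.55 to 1.67 for Klra8, and under panobinostat -10.45 to 0.33 for Klra8. No value could be given for Gzmb, Crtam and Eomes in pDC without vehicle replicate 2, where all counts are 0.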
